A study of Homo sapiens with 16 samples.

Results

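The genes described here are 7 surface proteins by which epithelial cells hold off complement and answer lymphocytes or macrophages: CD46, CD55 and CD59, CD47, CD274 (PD-L1), PVR (CD155) and TNFRSF21 (death receptor 6). They are 7 of the 26229 genes listed in the count table, and all 7 passed the filter of a mean above 10 read pairs per library. The group was chosen by symbol with earlier results of these data in view, and CD55 and PVR were selected on their own counts, as genes lower with siYAP and higher with YAP5SA. Their levels under treatment are therefore given as a description with no test, while the other 5 genes were tested in the fit across all genes. TNFRSF21 is a receptor of the TNF receptor family rather than a ligand of a lymphocyte receptor, so the name of the group holds for it only in part.

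RNA was sequenced from 2 human cell lines, the epidermoid carcinoma line A431 and the immortalised keratinocyte line HaCaT, both grown in DMEM with 10% FCS. In each line 3 libraries came from cells given siRNA against YAP1 (siYAP) and 1 from cells given control siRNA (siCTRL), transfected a second time after 24 hours and taken 48 hours later. A further 3 libraries per line came from cells given YAP5SA, a form of YAP1 that the LATS kinases cannot switch off because its phosphorylated serines are replaced by alanine, and 1 from cells given the empty vector (EV). The promoter that drives YAP5SA is not given in the sources used here, and each of the 4 controls is a single library, so every difference from a control rests on 1 control culture.

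Complement is a chain of plasma proteases that marks cells with C3b and can end in a membrane pore. CD55 (decay-accelerating factor) takes apart the convertases that make C3b, CD46 (membrane cofactor protein) helps factor I to cut C3b, and CD59 blocks the last step of the pore. CD55 and CD59 are held in the membrane by a GPI anchor, whereas CD46 has a membrane-spanning segment. CD47 binds SIRPA on macrophages and restrains phagocytosis, PD-L1 binds PD-1 on T cells, and PVR is a nectin-like adhesion molecule read by the activating receptor DNAM-1 and by the inhibitory receptor TIGIT. TNFRSF21 carries a death domain and is known from T cells and neurons. YAP1 acts on genes through the TEAD factors, whose core motif is GGAATG, often beside sites of AP-1.

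The start regions of CD55 and PVR are shown because these are the genes selected on their response to YAP1. Both sequences are the 250 bases before the annotated start in RefSeq on GRCh38.p14, read 5′ to 3′ on the plus strand, from chr1:207321428-207321677 for CD55 and chr19:44643660-44643909 for PVR. Capitals mark a match to GGAATG or to the AP-1 motif TGANTCA, on either strand.
CD55: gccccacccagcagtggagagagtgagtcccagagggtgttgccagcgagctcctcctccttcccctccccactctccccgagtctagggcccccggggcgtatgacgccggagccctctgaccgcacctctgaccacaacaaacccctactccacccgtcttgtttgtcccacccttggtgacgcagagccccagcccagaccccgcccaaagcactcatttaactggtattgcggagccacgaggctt
PVR: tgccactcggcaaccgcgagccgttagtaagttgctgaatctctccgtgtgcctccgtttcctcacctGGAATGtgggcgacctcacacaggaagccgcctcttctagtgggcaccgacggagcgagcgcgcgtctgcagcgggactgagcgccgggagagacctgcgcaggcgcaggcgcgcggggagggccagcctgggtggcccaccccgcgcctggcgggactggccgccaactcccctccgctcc
The PVR window held 1 GGAATG, with its first base at -182 from the start, and no AP-1 motif. The CD55 window held neither. Among the 11 windows that RefSeq gives for the 7 genes, including 50 bases after the start, only this PVR window held GGAATG and only 1 window of CD59 held TGANTCA. Over all 35116 windows of the same length, 14% held GGAATG and 7.71% held TGANTCA. A match describes these letters in this window and says nothing of whether a factor binds there.

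The libraries held 18115624 to 46791673 assigned read pairs, with a median of 26622174, and levels are given below as CPM, the read pairs of a gene per 1000000 in the library after TMM scaling. YAP1 was at 94.3 CPM in A431 siCTRL and 5.04 to 7.0 CPM with siYAP, and at 254 CPM in HaCaT siCTRL and 21.6 to 23.2 CPM with siYAP. With YAP5SA, YAP1 reached 1495, 3245 and 2940 CPM in A431 (EV, 124 CPM) and 7549, 22250 and 10070 CPM in HaCaT (EV, 423 CPM), so the labels hold in all libraries and the amount of YAP5SA differed between replicates. EGFR, known to be amplified in A431, was higher in every A431 library (750 to 1358 CPM) than in every HaCaT library (298 to 557 CPM). All 8 keratinocyte markers were above 1 CPM in every group. Their sum was 2677 to 3614 CPM in HaCaT siRNA libraries against 7030 to 8790 CPM in HaCaT vector libraries. In A431 it was 3198 to 4081 CPM against 5097 to 5452 CPM. Of these 8, 2 were called higher with siYAP over both lines, beside 13% of all genes tested. With YAP5SA in HaCaT 2 were called higher and 1 lower, beside 13.6% of all genes tested. PTPRC, which marks all leukocytes, stayed at or below 0.255 CPM, and CD3D and CD2 of T cells were listed at 0. Of the same 12 haematopoietic markers LYZ reached 5.19 CPM, HLA-DRA 4.48 CPM, CD14 3.62 CPM and ITGAX 2.0 CPM. By group mean 4 or 5 of the 12 were above 1 CPM in A431 and 1 or 2 in HaCaT. The summed haematopoietic markers (12 genes) of 12.9 to 177 CPM came mostly from CD68, a lysosomal protein that was at 8.16 to 170 CPM. That sum moved with treatment. It was 88.1 CPM in A431 siCTRL against 123.5 to 129.5 CPM with siYAP, and 12.9 CPM in HaCaT EV against 24.7 to 35.8 CPM with YAP5SA. In that HaCaT comparison 2 of the 5 markers tested were called higher, beside 13.6% of all genes tested called. The summed endothelial markers (5 genes) were 33.8 CPM in A431 siCTRL against 18.4 to 22.1 CPM with siYAP, and 59.2 CPM in HaCaT siCTRL against 16 to 19.8 CPM. In vector libraries they were 1.52 to 5.92 CPM. Of these 5 genes PECAM1 stayed at or below 1.68 CPM and KDR and TEK at or below 0.3445 CPM throughout. VWF reached 7.1 CPM and CDH5 reached 51.8 CPM. Of the 3 endothelial markers tested, 1 was called lower with siYAP in HaCaT and 1 higher with YAP5SA in HaCaT. Of all genes tested, 5.67% and 13.6% were called in these comparisons. The summed fibroblast markers (8 genes) were 10.2 to 27.9 CPM in siRNA libraries and 0.669 to 5.47 CPM in vector libraries. The part of these marker shifts, those of the keratinocyte markers included, in the results was not tested. YAP5SA replicate 1 of A431 stood apart from replicates 2 and 3: the chi-square per degree of freedom over genes was 78 and 71.9 against 6.75 between replicates 2 and 3. The YAP5SA libraries of HaCaT, on which the YAP5SA calls below rest, also stood apart from each other, at 143 between replicates 1 and 2, 107 between 2 and 3 and 70.6 between 1 and 3. All replicate pairs differed by more than sampling noise (6.75 or above), and the values below are also given without A431 YAP5SA replicate 1 where a call depends on it.

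CD55, the convertase regulator, was lower with siYAP in HaCaT cells and hardly so in A431 cells. In HaCaT cells CD55 was at 53.9 CPM in siCTRL and at 12.7, 9.62 and 12.5 CPM in the siYAP libraries. All 3 lay far below the control, with a log2 fold change of -2.21 ± 0.27 (SE), or 0.216 of the control level. In bulk RNA such a value cannot tell fewer cells with CD55 from less CD55 RNA per cell. In A431 cells the control held 96.3 CPM and the siYAP libraries 99.9, 84.5 and 83.6 CPM, so 1 of the 3 lay above it. The A431 log2 fold change was -0.11 ± 0.28 (SE), and the selection of CD55 as lower with siYAP thus rests on HaCaT cells.

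With YAP5SA, CD55 was at 53.3, 99.1 and 59.5 CPM in HaCaT cells against 25.6 CPM with EV, a log2 fold change of 1.47 ± 0.31 (SE). All 3 libraries were above EV, but the EV level was itself 0.475 of the siCTRL level, and 2 of the 3 YAP5SA libraries exceeded siCTRL. HaCaT YAP5SA replicate 2, which had the highest YAP1 count, also had the highest CD55. Without it the log2 fold change was 1.14. In A431 cells CD55 was at 87.6, 75.2 and 68.1 CPM with YAP5SA against 59.9 CPM with EV (log2 fold change 0.36 ± 0.29, SE). All 3 were above EV and all 3 were below the 96.3 CPM of siCTRL. The highest of them, replicate 1, had the least YAP1 of the 3. Taking siCTRL and EV together as 2 controls turned both A431 differences of CD55, to 0.20 with siYAP and -0.02 with YAP5SA. It also brought the CD55 difference with YAP5SA to 0.83 in HaCaT, and to 0.41 over both lines from 0.91 ± 0.21 (SE). The siYAP difference in HaCaT was then -1.77.

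CD46, the cofactor of factor I, moved the other way. CD46 was at 694 CPM in A431 siCTRL and 1243, 1113 and 1077 CPM with siYAP. In HaCaT cells the values were 512 CPM and 739, 790 and 732 CPM, so every siYAP library of either line exceeded its control. A gene is called here at an adjusted p (edgeR quasi-likelihood test, Benjamini-Hochberg over all 14673 genes tested) under 0.05 and a mean log2 CPM above 1. Over both lines CD46 rose by 0.64 ± 0.19 (SE) on the log2 scale, or 1.56-fold, with an edgeR adjusted p of 0.0382. Within A431 (0.72, adjusted p = 0.125) and within HaCaT (0.56, adjusted p = 0.248) it was not called. The call over both lines was lost when any 1 of the 6 siYAP libraries was left out, with adjusted p between 0.0576 and 0.0692. Without A431 YAP5SA replicate 1, CD46 was called in each line (adjusted p = 0.00796 and 0.0259).

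With YAP5SA, CD46 was at 388, 367 and 340 CPM in HaCaT cells against 498 CPM with EV. All 3 lay below EV, at a log2 fold change of -0.45 ± 0.25 (SE) that was not called (edgeR adjusted p = 0.227). In A431 cells the YAP5SA libraries held 996, 539 and 616 CPM against 787 CPM with EV. Replicate 1 lay above the control and the other two below it. Without that replicate CD46 was called lower in HaCaT cells (adjusted p = 0.0313) and over both lines at -0.45 (adjusted p = 0.0198).

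CD59, the inhibitor of the membrane pore, was not called in any comparison with a control. It was at 424 CPM in A431 siCTRL and 437, 387 and 368 CPM with siYAP, and at 608 CPM in HaCaT siCTRL and 585, 719 and 569 CPM with siYAP. With YAP5SA the values were 450, 345 and 370 CPM in A431 cells (EV, 411 CPM) and 458, 536 and 433 CPM in HaCaT cells (EV, 499 CPM). In each group the treated libraries lay on both sides of their control. The 4 log2 fold changes ran from -0.09 to 0.04, each with an SE of 0.19, and edgeR adjusted p from 0.823 to 0.944. Of the 3 complement regulators, CD46 was thus called higher with siYAP over both lines but in neither line alone, and CD59 was not called. The CD46 call did not hold without any 1 of the 6 siYAP libraries. CD55 was lower with siYAP in HaCaT cells, but it was selected on that fall and carries no test.

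**Figure D1:**
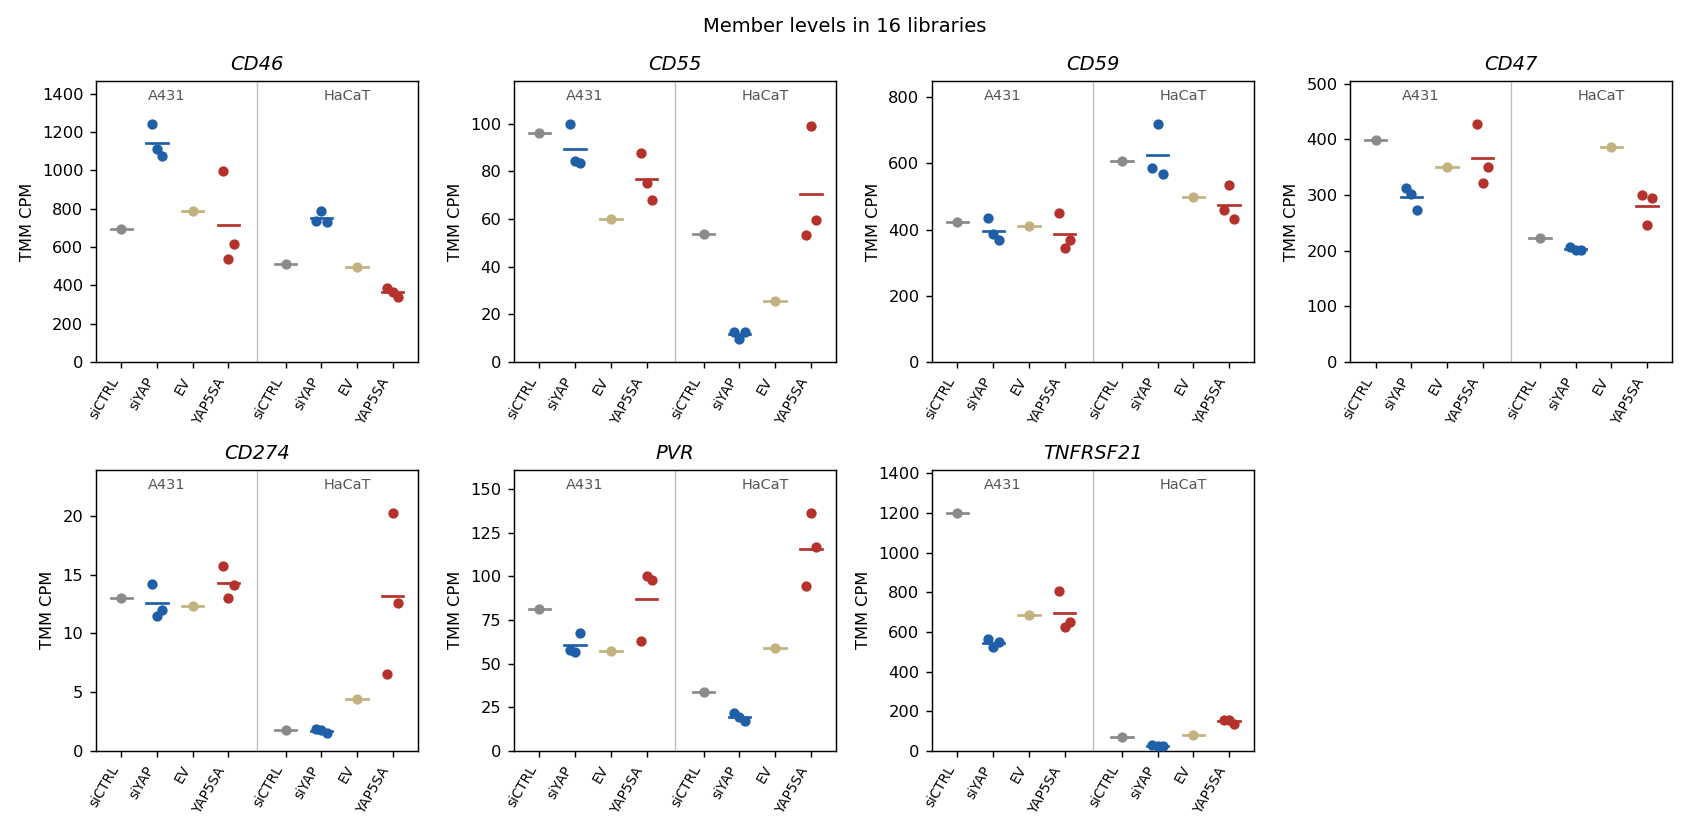
Level of each gene (TMM CPM, vertical axes starting at 0) in the 16 libraries by group, with 1 point per library and a bar at the group mean; siCTRL and EV are single libraries. CD55 in HaCaT cells was at 9.62 to 12.7 CPM with siYAP against 53.9 CPM in siCTRL, CD46 lay above its control with siYAP in both lines, and TNFRSF21 was at 522 CPM or more in every A431 library and at 157 CPM or less in every HaCaT library.

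CD47, the ligand of SIRPA, was at 398 CPM in A431 siCTRL and 313, 302 and 273 CPM with siYAP. In HaCaT cells it was at 223 CPM and 207, 202 and 201 CPM. All 6 siYAP libraries lay below their controls, but the log2 fold changes of -0.43 ± 0.16 (SE) in A431 and -0.13 ± 0.16 (SE) in HaCaT were not called (edgeR adjusted p = 0.138 and 0.721). With YAP5SA, CD47 was at 428, 321 and 350 CPM in A431 cells, where EV held 351 CPM. In HaCaT cells it was at 300, 246 and 296 CPM against 386 CPM with EV. The HaCaT libraries all lay below EV and all above the siCTRL level of 223 CPM, since EV was 1.73 times siCTRL. That difference of -0.46 ± 0.16 (SE) was not called (edgeR adjusted p = 0.0700). It passed without A431 YAP5SA replicate 1 (adjusted p = 0.0295) and without HaCaT YAP5SA replicate 1 (adjusted p = 0.0476). Which control is used therefore sets the sign of the YAP5SA difference of CD47 in HaCaT cells.

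CD274, which encodes PD-L1, was the least abundant of the genes. In A431 cells it was at 13 CPM in siCTRL, 14.2, 11.5 and 12 CPM with siYAP, 12.4 CPM with EV and 15.8, 13 and 14.1 CPM with YAP5SA. Neither A431 comparison was called (edgeR adjusted p = 0.967 and 0.932). In HaCaT cells CD274 was at 1.80 CPM in siCTRL and 1.82, 1.75 and 1.55 CPM with siYAP. The log2 fold change there was -0.08 ± 0.53 (SE), with an edgeR adjusted p of 0.960. With YAP5SA it was at 6.53, 20.3 and 12.6 CPM in HaCaT cells against the EV level of 4.4 CPM. All 3 lay above both HaCaT controls, and the rise of 1.58 ± 0.47 (SE) on the log2 scale, or 2.98-fold, was called (edgeR adjusted p = 0.0395). In the 3 HaCaT libraries the order of CD274 followed that of YAP1, but in A431 cells with YAP5SA it was the reverse. There YAP1 was at 1495, 3245 and 2940 CPM and CD274 at 15.8, 13 and 14.1 CPM in replicates 1 to 3. No test goes with these orders of 3 libraries. The call in HaCaT was lost when HaCaT cells were fitted alone (edgeR adjusted p = 0.115). It was also lost when any 1 of 7 of the 12 treated libraries was left out (A431 siYAP replicates 2 and 3, A431 YAP5SA replicate 3, HaCaT siYAP replicates 1 to 3 and HaCaT YAP5SA replicate 3), with adjusted p from 0.0520 to 0.0671. Without replicate 2 of HaCaT YAP5SA, which had the highest value, the change was 1.12 and still called (adjusted p = 0.0424). Over both lines CD274 was not called with YAP5SA (0.89, edgeR adjusted p = 0.136), nor was its YAP5SA difference between the lines (1.37, 0.206). Without HaCaT YAP5SA replicate 1 both were called (1.055, edgeR adjusted p = 0.0111, and 1.69, 0.0368).

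PVR, the ligand of DNAM-1 and TIGIT, differed from its controls in the same direction in both lines. In A431 cells it was at 81.1 CPM in siCTRL and 57.8, 56.8 and 67.5 CPM with siYAP. In HaCaT cells it was at 33.8 CPM and 21.6, 19.6 and 16.9 CPM. All 6 siYAP libraries lay below their controls, with log2 fold changes of -0.42 ± 0.25 (SE) in A431 and -0.80 ± 0.25 (SE) in HaCaT. With YAP5SA, PVR was at 63.0, 99.9 and 98.0 CPM in A431 cells, where EV held 57.3 CPM. In HaCaT cells it was at 94.4, 136 and 117 CPM against 59.1 CPM. All 6 YAP5SA libraries lay above EV, with log2 fold changes of 0.60 ± 0.26 (SE) and 0.97 ± 0.26 (SE). The controls of PVR differed in opposite senses, EV being 0.706 of siCTRL in A431 cells and 1.75 times siCTRL in HaCaT cells. With both controls together the siYAP difference was -0.19 in A431 and -1.27 in HaCaT.

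TNFRSF21, death receptor 6, had the largest fall with siYAP among the 5 genes that were tested. In A431 cells it was at 1202 CPM in siCTRL and 564, 522 and 551 CPM with siYAP. In HaCaT cells it was at 68.9 CPM and 27.3, 26.8 and 26.5 CPM. TNFRSF21 fell by 1.14 ± 0.14 (SE) on the log2 scale in A431 (edgeR adjusted p = 0.00109) and by 1.36 ± 0.15 (SE) in HaCaT (adjusted p = 0.000371). Over both lines it fell by 1.25 ± 0.10 (SE), to 0.421 of the control level, with an edgeR adjusted p of 1.6e-05. The A431 EV library held 687 CPM, 0.572 of siCTRL, so the A431 change was -0.79 and not called (adjusted p = 0.0658) with both controls together.

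With YAP5SA, TNFRSF21 was at 157, 156 and 135 CPM in HaCaT cells against 77.7 CPM with EV. All 3 lay above both controls, and the rise of 0.94 ± 0.16 (SE) was called (edgeR adjusted p = 0.00547). In A431 cells it was at 805, 627 and 653 CPM against 687 CPM with EV, on both sides of the control, with a log2 fold change of 0.02 ± 0.15 (SE; adjusted p = 0.996). Over both lines the rise of 0.48 ± 0.11 (SE) had an edgeR adjusted p of 0.0445. That call was lost when any 1 of 9 of the 12 treated libraries was left out (adjusted p from 0.0534 to 0.0810), the exceptions being A431 YAP5SA replicate 1 and HaCaT YAP5SA replicates 1 and 2, and with both controls together (0.29, adjusted p = 0.199). The difference of the YAP5SA effect between the lines, 0.93 ± 0.21 (SE) higher in HaCaT, was not called by edgeR (adjusted p = 0.0612). DESeq2 called it (adjusted p = 0.00531), as did edgeR on genes with more than 10 counts in every library (adjusted p = 0.0453). It was also called without A431 YAP5SA replicate 1 (adjusted p = 0.0125), HaCaT YAP5SA replicate 1 (0.0426) or HaCaT YAP5SA replicate 2 (0.0471).

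The 3′ UTR of TNFRSF21 held the letters TTCTTAA or CTTCTTA at 4 places, which are shown because both sites are frequent among genes that fell with siYAP. Among tested genes whose 3′ UTR spans 50 bases or more, 26.6% of 12090 held a site, and the share was 52.9% for the 1042 of them that fell with siYAP in the fit over both lines. These sites were picked from these same libraries, so the shares are a description. The sequences are from GENCODE v29 on GRCh38, 5′ to 3′ on the transcript, with the site in capitals. The TNFRSF21 windows lie on the minus strand within chr6:47232039-47232469 and the CD55 windows on the plus strand within chr1:207360514-207360952.
TNFRSF21, base 306 of the 3′ UTR: tccattttgcCTTCTTAtgtattttca
TNFRSF21, base 408: aggctcttaaCTTCTTAAaagtataatg
TNFRSF21, base 533: tttataaattTTCTTAAagattaagaa
TNFRSF21, base 710: tacttgtactCTTCTTAtgctaatatg
CD55, base 914 of the 3′ UTR of its longest transcript: gtgaaatttaTTCTTAAacgtgactac
CD55, base 1326 of the same 3′ UTR: taatgtgtatTTCTTAAaataaaactt
In the transcript with the longest coding sequence, CD59 (2 sites) was the other gene with a match, and CD46, CD55, CD47, CD274 and PVR had none. That transcript of CD55 has a 3′ UTR of 157 bases only, whereas its longest protein-coding transcript has one of 1356 bases with the 2 sites shown. The longest CD47 transcript held 1 site. CD59 holds sites and was not called with siYAP, and PVR holds none. The siRNA sequences are not given in the sources used here, so it could not be checked whether a YAP1 siRNA pairs with these letters. Whether the siYAP values of TNFRSF21 and CD55 include such pairing, apart from the loss of YAP1, was not tested.

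**Figure D2:**
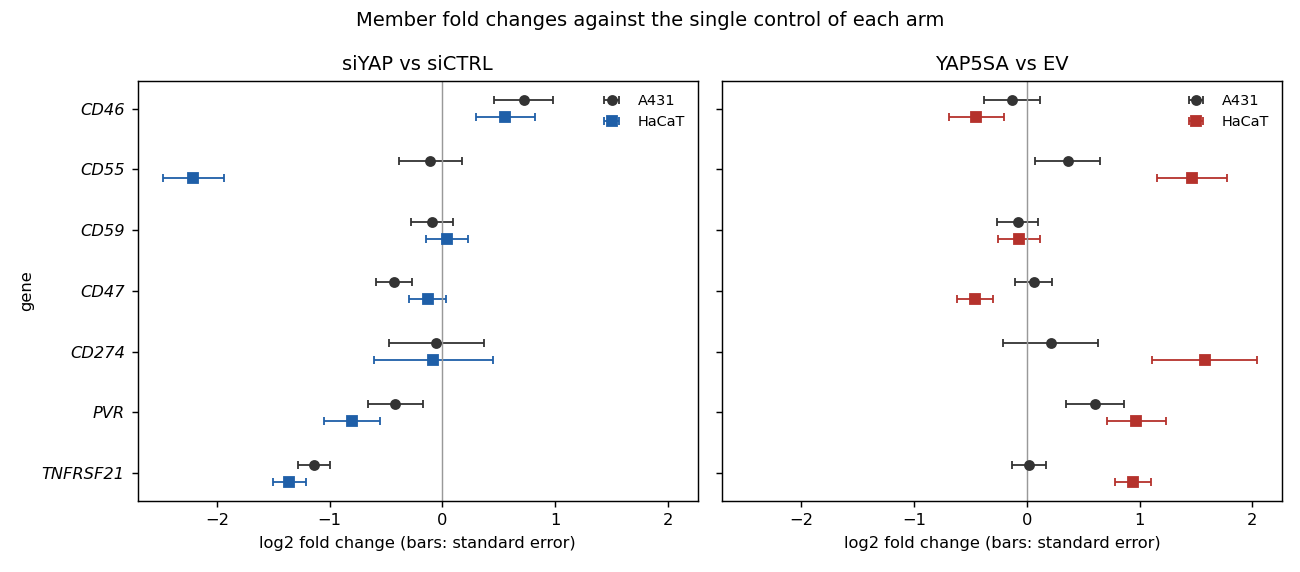
Log2 fold change of each gene against the single control of its arm, siYAP vs siCTRL on the left and YAP5SA vs EV on the right, on 1 common horizontal scale. Points are estimates from edgeR in A431 (circles) and HaCaT (squares) and bars are standard errors. CD55 with siYAP was at -0.11 in A431 and -2.21 in HaCaT, and TNFRSF21 was below -1 with siYAP in both lines.

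Among the 5 tested genes, siYAP called 1 in A431 and 1 in HaCaT (TNFRSF21 each time) and 2 over both lines (TNFRSF21 lower, CD46 higher). Over all genes tested, 5.6% were called in A431, 5.67% in HaCaT and 13% over both lines. YAP5SA called 0 of the 5 in A431, 2 in HaCaT (CD274 and TNFRSF21) and 1 over both lines (TNFRSF21), beside 0%, 13.6% and 2.04% of all genes tested. In A431 cells edgeR called 0 genes with YAP5SA, where 828 had an unadjusted p under 0.05 and DESeq2 called 3. Even YAP1, at 1495 to 3245 CPM against 124 CPM with EV, was not called there by edgeR. The absence of a call for these genes in A431 is shared with nearly all genes and does not show that they were unchanged. The median log2 fold change of the 7 genes was -0.28 with siYAP and 0.48 with YAP5SA over both lines, against 0.04 and 0.03 over all genes tested. CD55 and PVR, selected for this direction, are among the 7, so the selection enters these medians and no test goes with them. For the 5 tested genes the siYAP values over both lines were 0.64 (CD46), -0.03 (CD59), -0.28 (CD47), -0.07 (CD274) and -1.25 (TNFRSF21). With YAP5SA they were -0.29, -0.08, -0.20, 0.89 and 0.48 in the same order, on both sides of 0 each time.

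The siYAP and YAP5SA libraries were also compared directly, 6 against 6, which does not use the single controls but sets vector against siRNA transfection along with YAP1. This called 58.4% of all genes tested and 4 of the 5. CD274 rose by 1.56 ± 0.22 (SE; edgeR adjusted p = 3.79e-05), TNFRSF21 by 1.41 ± 0.08 (SE; 8.75e-09) and CD47 by 0.39 ± 0.08 (SE; 0.00107), and CD46 fell by 0.86 ± 0.13 (SE; 5.2e-05). CD59 was at -0.21 ± 0.09 (SE) with an edgeR adjusted p of 0.0590. CD59 passed without A431 YAP5SA replicate 1 (-0.27, adjusted p = 0.0153) and without HaCaT YAP5SA replicate 2 (-0.26, adjusted p = 0.0264). For the genes selected on their values the difference was 1.19 ± 0.15 (SE) for CD55 and 1.55 ± 0.13 (SE) for PVR. CD47 was thus higher with YAP5SA than with siYAP although its YAP5SA libraries lay below EV in HaCaT cells, at values of 246 to 300 CPM against 201 to 207 CPM with siYAP.

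Whether the effects differed between the lines was tested by the difference of differences. None of the 5 genes was called for siYAP (0.17% of all genes tested) or for YAP5SA (0.0886%). These estimates rest on 4 single controls, and the widest SE among the 5 was 0.67, for CD274 with siYAP. For CD55, selected on its values, the siYAP difference between HaCaT and A431 was -2.10 ± 0.41 (SE) and the YAP5SA difference was 1.10 ± 0.41 (SE). For PVR they were -0.38 ± 0.36 (SE) and 0.37 ± 0.36 (SE).

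The lines were also compared with each other over the treated libraries, with 3 against 3 in each arm. All 5 tested genes were called, beside 60.9% of all genes tested. TNFRSF21 was lower in HaCaT, at -3.28 ± 0.08 (SE), or 0.103 of the A431 level (edgeR adjusted p = 4.51e-12). CD46 (-0.79 ± 0.13, SE; adjusted p = 8.51e-05) and CD47 (-0.47 ± 0.08, SE; 0.000208) were lower in HaCaT as well. For these 3 genes the HaCaT and A431 libraries did not overlap in either arm. The share of all genes tested whose libraries separate in this way was not counted, so whether this is particular to them was not tested. CD59 was higher in HaCaT, at 0.47 ± 0.09 (SE; edgeR adjusted p = 0.000514). With YAP5SA, however, the CD59 libraries of the lines overlapped, at 433 to 536 CPM in HaCaT and 345 to 450 CPM in A431.

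The line difference of CD274, -1.50 ± 0.22 (SE; edgeR adjusted p = 4.07e-05), is an average over arms that were unlike. With siYAP CD274 was at 1.55 to 1.82 CPM in HaCaT and 11.5 to 14.2 CPM in A431. With YAP5SA the HaCaT libraries, at 6.53 to 20.3 CPM, lay on both sides of the A431 libraries, at 13 to 15.8 CPM. CD55 and PVR were selected on values that enter this average, so their line difference is a description. CD55 was at 9.62 to 12.7 CPM in HaCaT and 83.6 to 99.9 CPM in A431 with siYAP, but the lines overlapped with YAP5SA, at 53.3 to 99.1 and 68.1 to 87.6 CPM. PVR was at 16.9 to 21.6 CPM in HaCaT and 56.8 to 67.5 CPM in A431 with siYAP, and at 94.4 to 136 CPM and 63.0 to 99.9 CPM with YAP5SA.

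To compare levels between genes, CPM was divided by the length in kb of each gene's transcript with the longest coding sequence. In A431 cells the mean level over the 8 libraries was 269 CPM per kb for CD46, 266 for CD47, 195 for TNFRSF21, 52.3 for CD59, 44.4 for CD55, 21.9 for PVR and 3.63 for CD274. The ranges of CD46 (164 to 379), CD47 (213 to 333) and TNFRSF21 (145 to 334 CPM per kb) overlapped, as did those of CD59 (45.2 to 58.9) and CD55 (32.5 to 54.2). The ranges of PVR (17.1 to 30.1) and CD274 (3.14 to 4.32) did not overlap those of their neighbours. In HaCaT cells the order was CD47 (200 CPM per kb), CD46 (167), CD59 (72.2), TNFRSF21 (23.5), CD55 (22.1), PVR (18.7) and CD274 (1.74). There the ranges of CD47 and CD46 overlapped, and so did those of TNFRSF21, CD55 and PVR. The lowest PVR library (5.08) also lay under the highest CD274 library (5.56 CPM per kb). The length used moved CD47 most: per kb of its longest transcript CD47 was at 65.4 CPM in A431 and 49.2 in HaCaT. CD55 was at 28.3 and 14.1 CPM per kb on that scale, below PVR in HaCaT.

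**Figure D3:**
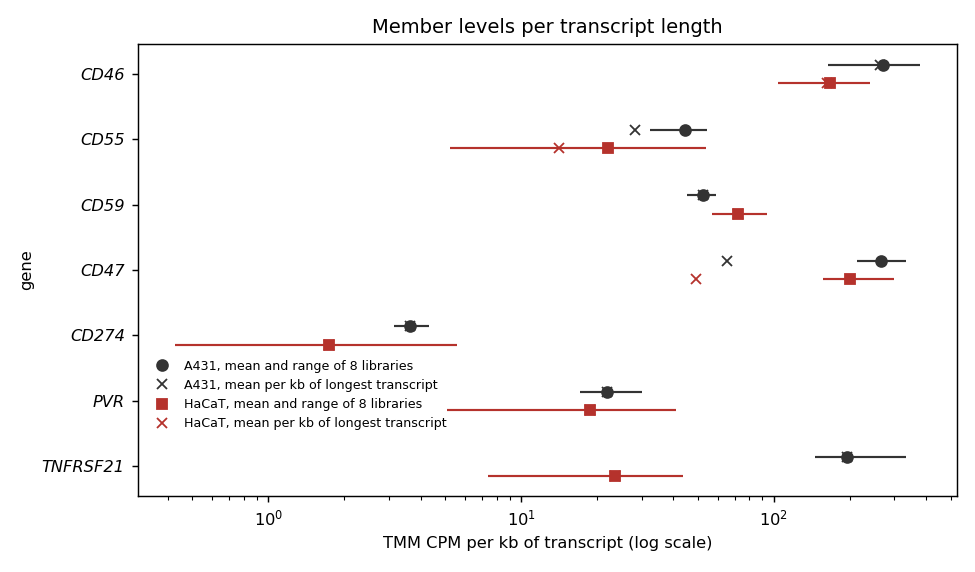
Level of each gene in TMM CPM per kb of transcript (log scale) in A431 (circles) and HaCaT (squares), with the mean over 8 libraries and a line from the lowest to the highest library. Crosses give the mean per kb of the longest transcript, which for CD47 is 65.4 in A431 and 49.2 in HaCaT. CD274 is lowest in both lines and TNFRSF21 is the gene whose lines lie farthest apart.

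Genes with the profile most like CD55 and PVR were sought by the root mean square (RMS) distance of log2(CPM + 0.5), centred within each line, over the 16 libraries, among 12239 other genes with a mean log2 CPM above 1. The nearest gene to PVR was TNFRSF12A, at a distance of 0.104, where the profile of PVR itself has an RMS of 0.830. TNFRSF12A encodes the TWEAK receptor Fn14. It was at 65.7 CPM in A431 siCTRL, 44.9 to 49.7 CPM with siYAP, 54.7 CPM with EV and 57.4 to 88.0 CPM with YAP5SA. In HaCaT cells it was at 21.7 CPM, 11 to 15.6 CPM, 41.3 CPM and 68.5 to 94.3 CPM in the same order of groups. The next were RCC1 (0.181), the exchange factor of the GTPase Ran, and CMSS1 (0.182). The nearest to CD55 were ECE2, an endothelin-converting protease, at 0.319, CENPV at 0.353 and LOC101927746 at 0.355, against an RMS of 0.837 for CD55 itself. CD55 thus had no neighbour as close as those of PVR, and of its 3 nearest genes 1 remained with a pseudocount of 2 CPM, against 3 of 3 for PVR. PVR ranked 79 among the neighbours of CD55, and CD55 ranked 1071 among those of PVR, at a distance of 0.490. The points share their libraries and depth, and these distances carry no test.

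**Figure D4:**
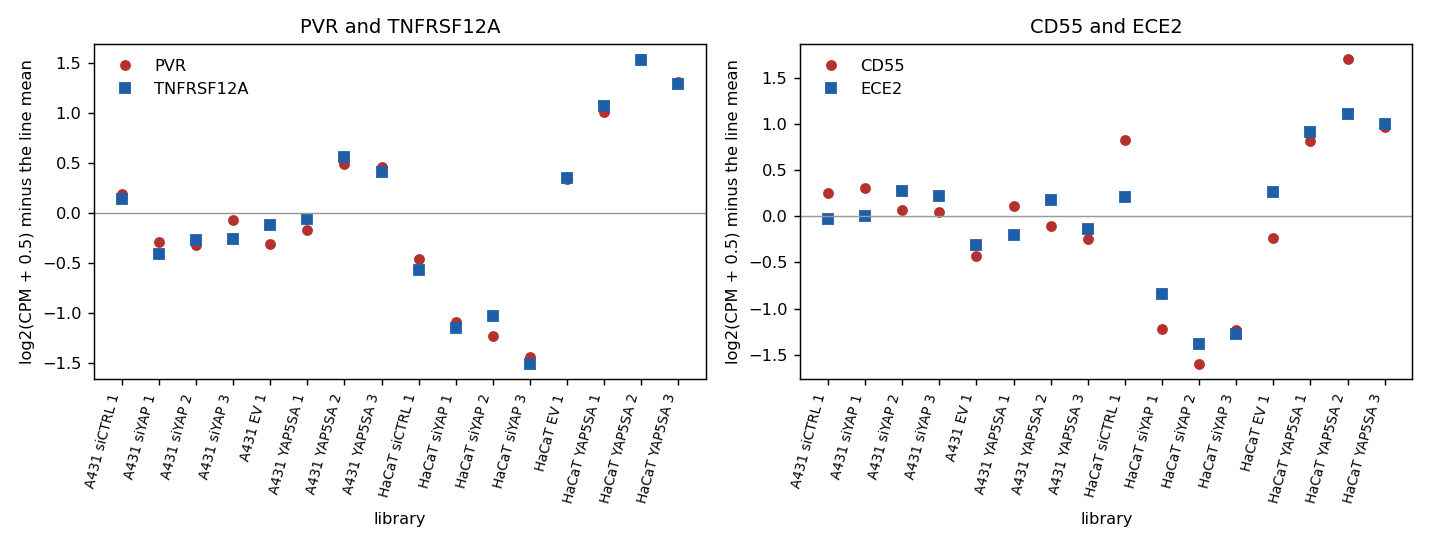
Profiles over the 16 libraries of PVR with TNFRSF12A (left) and CD55 with ECE2 (right), as log2(CPM + 0.5) minus the mean of the line, with 1 point per library. PVR and TNFRSF12A lie at an RMS distance of 0.104 and CD55 and ECE2 at 0.319, with CD55 farthest above ECE2 in HaCaT siCTRL and HaCaT YAP5SA replicate 2.

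The other genes of these pathways came from 10 lists with 165 genes besides the 7, of which 109 were tested. With siYAP 1 was called higher and 2 lower in A431 (2.75% of the 109), 1 and 6 in HaCaT (6.42%), and 3 and 6 over both lines (8.26%). With YAP5SA none was called in A431, 9 were called higher and 9 lower in HaCaT (16.5%), and 3 higher over both lines (2.75%). These shares lie near or below those of all genes tested, except 16.5% against 13.6% with YAP5SA in HaCaT. The median log2 fold change of the 109 over both lines was 0.02 with siYAP and 0.04 with YAP5SA.

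Within complement, none of the 5 other regulators tested was called in any of these comparisons. Of 10 components 1 was called: C3, the central component, fell with siYAP by 0.99 ± 0.22 (SE) in A431 and by 1.34 ± 0.22 (SE) in HaCaT (edgeR adjusted p = 0.0195 and 0.00381). C3 was at 468 CPM in A431 siCTRL and 220 to 244 CPM with siYAP, and at 52.7 CPM in HaCaT siCTRL and 17.1 to 23.0 CPM with siYAP. No siYAP library reached its control, but the A431 EV library held 217 CPM, no more than the siYAP libraries. The YAP5SA comparisons of C3 were not called. Of 5 complement receptors ITGB2, the shared chain of the leukocyte integrins, was called lower with siYAP (-1.57 ± 0.47, SE, over both lines) and higher with YAP5SA (3.47 ± 0.55, SE). Both calls came from HaCaT, since in A431 neither comparison was called and the siYAP value was 0.51 ± 0.62 (SE). In HaCaT cells ITGB2 was at 7.67 to 13.4 CPM with YAP5SA against 0.159 CPM with EV, and at 0 to 0.331 CPM with siYAP against 2.29 CPM in siCTRL, so its folds rest on few counts in EV and siYAP.

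Of the 6 partners of CD47 tested, LRP1 and CALR, a phagocytic receptor and its surface ligand calreticulin, rose with siYAP over both lines by 0.98 ± 0.29 (SE) and 0.37 ± 0.11 (SE). Their edgeR adjusted p were 0.0423 and 0.0436. LRP1 was called in neither line alone, and CALR only in HaCaT (edgeR adjusted p = 0.0469). CALR in EV, at 1238 CPM in A431 and 643.5 CPM in HaCaT, was above every siYAP library of its line, and LRP1 in A431 EV (177 CPM) lay among the siYAP libraries (153 to 226 CPM). THBS1, a secreted ligand of CD47, rose with YAP5SA over both lines by 1.44 ± 0.22 (SE; edgeR adjusted p = 0.00826). THBS1 was at 2455 to 3958 CPM in HaCaT cells with YAP5SA against 701 CPM with EV, and in A431 cells at 101 to 181 CPM against 90.2 CPM with EV and 370 CPM in siCTRL. Of the 12 other B7 genes and PD-L1 partners, PDCD1LG2, which encodes PD-L2, was the one called, with YAP5SA in HaCaT (4.06 ± 0.76, SE). It was at 4.33, 18.7 and 9.13 CPM there against 0.637 CPM with EV, in the same order of libraries as CD274. Of the 7 other nectins and receptors tested, PVRL2 (nectin-2), which shares DNAM-1 and TIGIT with PVR, rose with YAP5SA over both lines by 0.55 ± 0.11 (SE; edgeR adjusted p = 0.0255). It was at 37.9 to 42.3 CPM in HaCaT cells against 15.9 CPM with EV, but in A431 cells at 46.4 to 50.3 CPM against 56.3 CPM.

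Of the 12 death domain receptors and APP family genes tested, the kinase RIPK1 was the one called, lower with YAP5SA in HaCaT (-0.74 ± 0.13, SE). Of the 14 NK cell ligands tested, MICB, a ligand of NKG2D, was called higher with siYAP in A431 (1.21 ± 0.30, SE) and with YAP5SA in HaCaT (1.01 ± 0.30, SE). With YAP5SA in HaCaT 3 of these 14 were called higher and 2 lower, beside 13.6% of all genes tested. Among them were ICAM1 (1.14 ± 0.25, SE) and CLEC2B (-1.57 ± 0.32, SE). Of the 28 genes of GPI anchor synthesis, 3 were called lower with siYAP over both lines and 0 higher, a share below the 13% of all genes tested. These were PIGM, a mannosyltransferase (-1.16 ± 0.17, SE), PIGU, a subunit of the transamidase (-0.34 ± 0.10, SE), and DPM1 (-0.31 ± 0.08, SE). PIGM was also called in each line alone, PIGU in HaCaT only and DPM1 in neither line. With YAP5SA in HaCaT 1 of the 28 was called higher (GPAA1, 1.21 ± 0.35, SE) and 4 lower, beside 13.6% of all genes tested. Among those called lower were PGAP1 (-0.99 ± 0.31, SE) and PIGN (-0.59 ± 0.13, SE). Of the 11 genes of interferon gamma signalling, 0 were called higher and 2 lower with YAP5SA in HaCaT, where 13.6% of all genes tested were called. These were the receptor chain IFNGR1 (-0.60 ± 0.15, SE) and the kinase JAK2 (-0.87 ± 0.26, SE). With siYAP over both lines NLRC5, the activator of MHC class I genes, was called higher (0.55 ± 0.16, SE) and IFNGR1 lower (-0.42 ± 0.11, SE), beside 13% of all genes tested. NLRC5 was called in neither line alone, and IFNGR1 in HaCaT only.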

How the data were processed

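The deposited values are expected counts per gene, which the authors made with RSEM from paired-end HiSeq reads. The submitters' processing notes name RSEM 1.2.11, edgeR and hg19, while the study's methods name a later RSEM version and a RefSeq model. Expected counts were rounded to whole numbers. All 16 libraries were fitted in edgeR 4.0.16 (R 4.3.3) as 8 groups of line and treatment with TMM factors of 0.914 to 1.07, on the 14673 genes with a mean above 10 counts, leaving 8 residual degrees of freedom. The standard error (SE) is the size of the log2 fold change divided by the square root of F. A gene was called at a Benjamini-Hochberg adjusted p under 0.05 with a mean log2 CPM above 1. The methods speak of biological triplicates but the labels do not tie libraries to separate cultures, so p-values measure only the spread between these libraries, which may be technical.

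The members and lists were chosen with earlier results of these data known. Genes named besides the members are YAP1, EGFR, the 3 nearest genes to CD55 and PVR, and at most 3 called genes per list with the largest change over both lines, or in 1 line where none was called over both. Marker genes were named after their values were seen. The table has 28 symbols turned into dates. The fit was tested on simulated data in which 200 genes were changed by 1 on the log2 scale in the siYAP libraries. It called 44.5% of them in A431, 41% in HaCaT and 75% over both lines, so a gene not called in 1 line may still have changed. No change was put into the YAP5SA libraries, so recovery against EV was not checked. Levels per length and 3′ UTR sites used GENCODE v29, which matched 86.1% of tested genes, and start regions used RefSeq on GRCh38.p14. Printed coordinates are those of GRCh38, and none was taken from the count table. A count of 0 allows up to 3 counts, and depth limits the precision of CD274, at 33 to 706 counts, more than that of the others, at 198 counts or more. Alternatives were DESeq2 1.42.0, RLE factors, no filter, more than 10 counts in every library, each line alone, siCTRL and EV as 2 controls, each treated library left out, and a replicate block. Those on transcript length were chosen after seeing the data.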

Additional observations from a re-analysis of the deposited data

How the results depend on the processing

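Each setting was changed alone. With siCTRL and EV as 2 controls, siYAP called 198 genes and 0 of the 5 tested members in A431, 2941 genes in HaCaT and 2933 over both lines, and YAP5SA called 1 gene in A431 and 766 over both lines. Under that setting CD55 in A431 turned to 0.20 (siYAP) and -0.021 (YAP5SA), CD59 with siYAP over both lines to 0.051, and CD47 and TNFRSF21 with YAP5SA in A431 to -0.033 and -0.44. CD47 was then called lower with siYAP over both lines (-0.46, adjusted p = 0.0340), and CD274 higher with YAP5SA over both lines (1.11, adjusted p = 0.0416). DESeq2 called 1365, 1316, 3 and 1024 genes for siYAP in A431, siYAP in HaCaT, YAP5SA in A431 and YAP5SA over both lines. For the differences between the lines it called 257 genes with siYAP and 883 with YAP5SA, with 1 member (TNFRSF21). Each line fitted alone called 349 genes for siYAP and 654 for YAP5SA in HaCaT, with 1 member (TNFRSF21) for YAP5SA. RLE factors called 13 and 108 genes for the line differences with siYAP and YAP5SA. Without a filter YAP5SA called 2 genes in A431 and 35 for the line difference, where CD59 turned to -0.01. With more than 10 counts in every library, 217 genes and 1 member (TNFRSF21) were called for the YAP5SA line difference, TNFRSF21 with YAP5SA in A431 turned to -0.024, and CD59 was called in YAP5SA vs siYAP (adjusted p = 0.0237). The causes were not tested.

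Leaving out each treated library in turn, siYAP called 333 to 1256 genes in A431, 518 to 1239 in HaCaT and 1299 to 2449 over both lines, with 1 to 2 members each time. YAP5SA called 0 to 87 genes and 0 members in A431, 1143 to 2910 genes and 1 to 4 members in HaCaT, and 48 to 1367 genes and 0 to 2 members over both lines. YAP5SA vs siYAP called 8088 to 8785 genes and 4 to 5 members. The line differences called 6 to 97 genes and 0 members with siYAP and 1 to 873 genes and 0 to 2 members with YAP5SA. HaCaT against A431 called 8525 to 9022 genes and 7 members, CD55 and PVR counted though selected on values that enter it. Without A431 YAP5SA replicate 1, 87 genes were called with YAP5SA in A431 and 873 for its line difference. Among the members, 12 changes of sign occurred, all in values that were not called. Their log2 fold changes ranged from -0.173 to 0.01 for CD274 with siYAP in A431 and from -0.092 to 0.092 for its line difference. They ranged from -0.074 to 0.10 for CD59 with siYAP in HaCaT and from -0.079 to 0.132 for its YAP5SA line difference. With YAP5SA in A431 they ranged from -0.445 to 0.035 for CD46, from -0.065 to 0.148 for CD47 and from -0.103 to 0.085 for TNFRSF21.

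A replicate block in YAP5SA vs siYAP called 8479 genes, against 8571 without it, and CD59 besides the other 4 members (adjusted p = 0.0182). The deviations of siYAP and YAP5SA libraries with the same number in a line correlated at -0.03 to 0.12. Libraries with different numbers were not compared, so these values cannot tell whether the shared numbers pair the samples. No block could be fitted for comparisons with a single control. Of the 3 genes nearest to CD55, 1 remained with a pseudocount of 2 CPM. Without length 3 members took another place in A431 and 4 in HaCaT, and with the longest transcript 2 and 5, where 4 members rather than 2 held a 3′ UTR site.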
